A study of Homo sapiens with 6 samples.

Results

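The immediate early genes EGR1, EGR2, EGR3, IER2, IER3, IER5, NR4A1, NR4A2 and NR4A3, together with MYC, were examined in cells labelled OVCAR3, a long-established cell line from a human ovarian carcinoma. The 10 genes were taken by symbol from the 19973 genes of the deposited table, and all 10 were found there once. RNA was sequenced from OVCAR3 cells transfected with shNC, a control hairpin, and from OVCAR3 cells transfected with shNUF2, a hairpin against the kinetochore gene NUF2. Both groups had wild-type genotype in the labels and were selected with puromycin as stable lines. Each group had 3 libraries, 1 hairpin against NUF2 was used, and whether a line came from a single clone is not given in the sources used here. The comparison asked how the mRNA level of each gene differed between shNUF2 and shNC cells.

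Immediate early genes are transcribed within minutes when a growth factor, serum or stress signal reaches a cell, without any new protein having to be made first. The signal usually passes through the MAP kinase cascade to serum response factor (SRF) and its ternary complex partners such as ELK1, which bind CArG boxes, or through kinases to CREB, which binds cAMP response elements (CRE). Their mRNAs are short-lived, and many of the proteins are transcription factors that start the next round of transcription. MYC is induced by the same signals and, paired with MAX, drives genes of ribosome production, metabolism and growth.

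Total counts were between 14115009 and 16995452 reads with shNC and between 13057534 and 15227460 reads with shNUF2. NUF2 itself had 903, 1096 and 1092 reads in shNC replicates 1, 2 and 3 and 281, 290 and 384 reads in shNUF2 replicates 1, 2 and 3. Its normalized count was 65.2 ± 2.94 CPM (read counts scaled to a common library size; SD, n = 3) with shNC and 22.9 ± 2.40 CPM with shNUF2, so the libraries matched their labels. Nothing in the labels says that the libraries of a group came from separate cultures, and p-values then measure only the spread between these libraries. In bulk RNA, fewer cells that express a gene and less RNA per cell cannot be told apart. Among 9 markers of ovarian epithelial cells, KRT7, MSLN and KRT8 were abundant, PAX8 had 143 to 252 reads and EPCAM 44 to 91 reads in a library, while CDH1 had 9 to 33 reads and WT1 0 to 7 reads, so these last 2 defining markers were close to absent. OVCAR3 is usually described as positive for PAX8, EPCAM and CDH1, so these counts are low for the labelled line, and the identity of the line was not tested. The 9 epithelial markers summed to 398.9 to 424.9 FPKM with shNC and 373.0 to 401.6 FPKM with shNUF2. The 9 markers of blood, endothelial and stromal cells summed to 10.1 to 10.7 FPKM with shNC and 9.54 to 10.5 FPKM with shNUF2, most of it from COL1A1. Of these, PTPRC had at most 11 reads, CD14 at most 11 and CD3E at most 1 in any library. At an adjusted p under 0.05 in edgeR, 4 of the 8 epithelial markers tested rose and 3 fell, where 33.9% and 33.8% of all genes did. Of the other markers, 4 of the 9 were left out by the filter on low counts, and CDH5, with 1 to 4 reads in shNC and 15 to 27 in shNUF2 libraries, passed it only through the shNUF2 libraries, so no count of calls is given for that list. DCN, named after its values were seen, had 40 to 67 reads in shNC and 104 to 130 in shNUF2 libraries. The part of either marker list in the results was not tested.

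The sequences directly before the transcription starts were examined for classical signal-responsive elements, and elements farther away are not covered. In the RefSeq table of promoters (GRCh38.p14), 6 of the 10 genes matched, with 9 start sites in all, and EGR3, IER3, NR4A2 and MYC did not. The 250 bases before each start were searched on both strands for the CArG box, the NF-kB site, the full CRE (TGACGTCA), the CRE core (TGACG, which also occurs inside the full CRE), the AP-1 site (TGANTCA), the E-box bound by MYC and MAX (CACGTG), the EGR site (GCGTGGGCG), the NBRE bound by NR4A receptors (AAAGGTCA), the GC box (GGGCGG) and the TATA box (TATAAA). EGR1 is shown because it is the one member that fell, IER5 because it rose and holds none of the motifs, a site of EGR2 because it holds a CArG box, and sites of NR4A3 because they hold CRE cores. Capitals mark CArG boxes and CRE cores, on either strand, and coordinates are on GRCh38.p14.
EGR1, chr5:138465229-138465478, + strand: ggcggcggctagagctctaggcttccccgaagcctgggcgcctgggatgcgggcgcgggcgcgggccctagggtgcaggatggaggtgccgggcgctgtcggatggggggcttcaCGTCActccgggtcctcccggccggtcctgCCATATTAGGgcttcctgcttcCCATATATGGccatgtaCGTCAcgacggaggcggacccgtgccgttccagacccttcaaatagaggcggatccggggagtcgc
IER5, chr1:181088450-181088699, + strand: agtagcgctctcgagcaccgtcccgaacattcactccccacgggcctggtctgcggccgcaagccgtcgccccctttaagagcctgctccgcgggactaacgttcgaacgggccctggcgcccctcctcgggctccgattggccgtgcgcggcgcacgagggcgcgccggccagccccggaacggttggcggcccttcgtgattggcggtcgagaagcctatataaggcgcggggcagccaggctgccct
EGR2, chr10:62816418-62816447, − strand: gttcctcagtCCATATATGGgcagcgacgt
NR4A3, chr9:99821764-99821793, + strand: ggaggaggagggTGACGtagcgtcccatgg
NR4A3, chr9:99821790-99821819, + strand: atggCGTCAcatTGACGtctcgcattccag
EGR1 held 2 CArG boxes, which began 105 and 83 bases before the start, flanked by 2 CRE cores at 135 and 66 bases before it. A CArG box was found in 1.16% and a CRE core in 21.2% of the 35116 promoter windows searched. The third window of EGR2 held 1 CArG box and 2 CRE cores, and the NR4A3 window held 4 CRE cores and no CArG box. IER2 held 1 CRE core and 3 GC boxes, and a GC box was in 42.6% of all windows. The IER5 window, like the first of the 2 NR4A1 windows, held none of the 10 motifs in these letters.

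Per unit length, the members covered a wide range of levels. With shNC, the mean FPKM (the count scaled by gene length and library total) was 88.0 ± 8.48 (SD, n = 3) for IER3 and 69.6 ± 3.14 for MYC, which placed them above 98.9% and 96.2% of the genes tested by their mean over the 6 libraries. IER5 with 17.1 ± 2.44 FPKM and NR4A1 with 16.5 ± 0.828 FPKM followed, and their libraries overlapped, so that their order was not resolved. EGR1 had 10.3 ± 0.206 FPKM, IER2 8.44 ± 0.793 FPKM, NR4A2 2.96 ± 0.727 FPKM and NR4A3 1.48 ± 0.141 FPKM, in that order without overlap. EGR2 and EGR3 were near 0, with 0.0509 ± 0.0251 and 0.00844 ± 0.0146 FPKM. With shNUF2, the order was the same from IER3 (250.6 ± 13.3 FPKM) through MYC (64.0 ± 3.68), IER5 (33.1 ± 3.31) and NR4A1 (15.2 ± 0.0794), and IER5 now stood clear of NR4A1. IER2 (9.12 ± 0.328 FPKM) and EGR1 (6.58 ± 0.836 FPKM) changed places, again without overlap between their libraries. EGR3 and EGR2 overlapped at the low end, with 0.214 ± 0.120 and 0.157 ± 0.0862 FPKM.

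Of the 10 members, 8 passed the filter on low counts and were tested, and EGR2 and EGR3 did not pass. By the study's thresholds (log2 fold change above 1 or below -1 and unadjusted p under 0.05), 1 of the 8 tested members, IER3, was a differentially expressed gene (DEG) that was higher with shNUF2, where 9.41% of the 12874 genes tested were called, and 0 were lower DEGs, where 4.16% were called. EGR1 was lower at an unadjusted p of 1.03e-06 but did not reach the fold threshold, and DESeq2 also gave 0 lower DEGs among the members. At a Benjamini-Hochberg adjusted p under 0.05 in the quasi-likelihood test of edgeR, 4 members rose (IER3, IER5, NR4A2 and NR4A3), where 33.9% of all genes rose, and 1 member fell (EGR1), where 33.8% of all genes fell. IER2, NR4A1 and MYC did not pass. For 5 of the 8 members the shNC and shNUF2 libraries had no overlap in CPM, as was the case for 70.6% of all genes tested. The median log2 fold change of the 8 members was 0.28, and that of all genes tested was -0.01. In the fits that also tested EGR3, the members' median was 0.46 without shNC replicate 1 and 0.27 without shNC replicate 2. It was 0.37 without shNC replicate 3 and 0.42 without shNUF2 replicate 3. EGR3 passed the filter there only through the shNUF2 libraries where it is high, so these medians are no support for a rise. With both rare members and no filter, the median was 0.45. The members were not tested as a group.

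**Figure D1:**
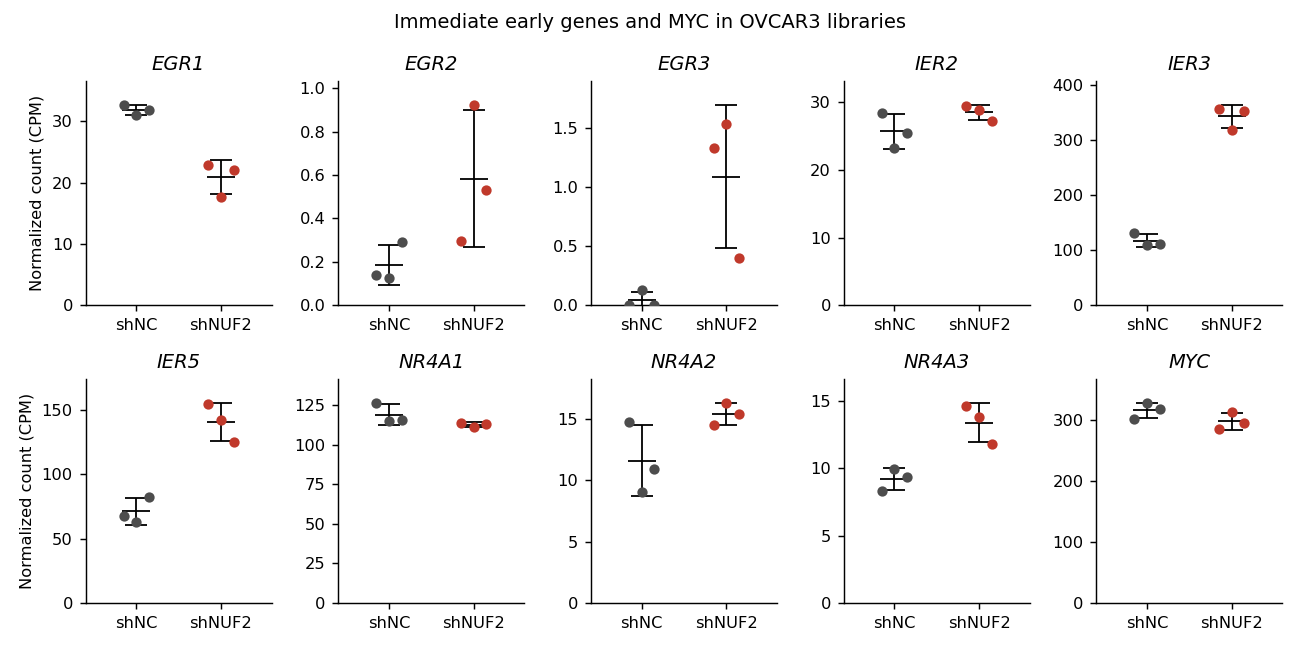
Normalized counts (CPM) of the 10 members in each library, 1 panel per gene with its own linear axis from 0. Points are the 3 shNC (grey) and 3 shNUF2 (red) libraries, and bars show the mean ± SD. IER3, IER5 and NR4A3 lie higher in every shNUF2 library, and EGR1 and, by a narrow margin, NR4A1 lie lower. The groups of IER2, NR4A2 and MYC overlap, and EGR2 and EGR3 stay below 2 CPM.

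The EGR family encodes zinc finger transcription factors that bind GC-rich sites. EGR1 (ENSG00000120738, chromosome 5 of GRCh38, 138465479 to 138469303, + strand), the family member best known as a sensor of growth factor signals, had 464, 496 and 549 reads in shNC replicates 1 to 3 and 309, 230 and 333 reads in shNUF2 replicates 1 to 3. All shNUF2 libraries held less EGR1 than any shNC library, and shNUF2 replicate 2 was the lowest. EGR1 fell from 31.9 ± 0.802 CPM to 20.9 ± 2.82 CPM (SD, n = 3), a log2 fold change of -0.60 (standard error 0.09, adjusted p = 3.38e-06, quasi-likelihood test of edgeR, Benjamini-Hochberg adjusted). The shNC libraries varied by 2.52% around their mean, less than the 4.46% that counting error alone gives, and the shNUF2 libraries by 13.5% against 5.87%. Without shNUF2 replicate 2, the log2 fold change was -0.50, the value nearest 0 when a library was left out, and EGR1 still passed.

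EGR2 and EGR3, close relatives of EGR1 that act in nerve and immune cells, were counted only rarely. EGR2 (ENSG00000122877, chromosome 10, 62811996 to 62919900, − strand) had 2, 2 and 5 reads in the shNC libraries against 4, 12 and 8 in the shNUF2 libraries. Scaled to the libraries, the lowest shNUF2 library (0.297 CPM) was just above the highest shNC library (0.291 CPM). The summed counts, 24 with shNUF2 and 9 with shNC, gave a ratio of 3.05 between the groups, with a 95% exact interval from 1.37 to 7.44. EGR3 (ENSG00000179388, chromosome 8, 22687659 to 22693480, − strand) had 0, 2 and 0 reads in the shNC libraries against 18, 20 and 6 in the shNUF2 libraries. All 3 shNUF2 libraries were above all 3 shNC libraries, and shNUF2 replicate 3 held less than the other shNUF2 libraries. The summed counts, 44 with shNUF2 and 2 with shNC, gave a ratio of 25.1 with a 95% exact interval from 6.55 to 213.9. These intervals cover counting error only, and the ratios were calculated after the values were seen. When no filter was applied, edgeR's adjusted p was 5e-06 for EGR3 and 0.0895 for EGR2. In GENCODE 29 the gene AC055854.1 lies on the opposite strand of EGR3, and the strand setting of the counting is not given in the sources used here, so reads of the pair may not have been told apart.

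The 3 IER genes share a name for their rapid induction rather than one protein family. IER3 (ENSG00000137331, chromosome 6, 30743199 to 30744548, − strand), a regulator of apoptosis that is phosphorylated by ERK, had 1863, 1754 and 1915 reads in the shNC libraries against 4804, 4147 and 5317 in the shNUF2 libraries. All shNUF2 libraries held more than any shNC library by a wide margin. IER3 rose from 117.4 ± 11.9 CPM to 343.0 ± 20.8 CPM (SD, n = 3), or by 1.55 on the log2 scale (standard error 0.06, adjusted p = 2.13e-18, quasi-likelihood test of edgeR, Benjamini-Hochberg adjusted). A larger log2 fold change was found for 589 of the 12874 genes tested. IER3 has an antisense gene, IER3-AS1, in GENCODE 29.

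IER5 (ENSG00000162783, chromosome 1, 181088700 to 181092900, + strand), whose protein works with the phosphatase PP2A on the heat shock factor HSF1, had 963, 1008 and 1421 reads in the shNC libraries against 2090, 1849 and 1889 in the shNUF2 libraries. The groups did not overlap, although shNC replicate 3 was higher than the other shNC libraries. IER5 rose from 71.1 ± 10.2 CPM to 141.0 ± 14.8 CPM (SD, n = 3), a log2 fold change of 0.98 (standard error 0.07, adjusted p = 7.88e-12, quasi-likelihood test of edgeR, Benjamini-Hochberg adjusted). This value lay just under the DEG threshold of 1. It was 1.10 without shNC replicate 3, 1.06 without shNUF2 replicate 3 and 1.00 among genes with at least 1 CPM in every library, and IER5 was a DEG in these 3 settings.

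IER2 (ENSG00000160888, chromosome 19, 13150411 to 13154911, + strand), a nuclear protein tied to transcription, had 403, 372 and 437 reads in the shNC libraries against 396, 374 and 410 in the shNUF2 libraries, and the normalized counts overlapped between the groups. The mean was 25.7 ± 2.55 CPM with shNC and 28.5 ± 1.09 CPM with shNUF2 (SD, n = 3). The log2 fold change of 0.15 (standard error 0.09, adjusted p = 0.141, quasi-likelihood test of edgeR, Benjamini-Hochberg adjusted) did not pass, and without shNC replicate 1 it was 0.22 with an adjusted p of 0.0483. AC011446.2 overlaps IER2 on the opposite strand in GENCODE 29.

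The NR4A genes encode orphan nuclear receptors whose activity follows their level, since they need no ligand. NR4A1 (ENSG00000123358, chromosome 12, 52022832 to 52059507, + strand) had 1799, 1835 and 1991 reads in the shNC libraries against 1534, 1442 and 1699 in the shNUF2 libraries. The normalized counts, 119.0 ± 6.52 CPM with shNC and 112.6 ± 1.47 CPM with shNUF2 (SD, n = 3), did not overlap but lay close together. The log2 fold change of -0.08 (standard error 0.05, adjusted p = 0.16, quasi-likelihood test of edgeR, Benjamini-Hochberg adjusted) did not pass, and with library totals as the only scaling it was -0.12 with an adjusted p of 0.0385. An antisense gene, AC025259.3, overlaps NR4A1 in GENCODE 29.

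NR4A2 and NR4A3 were expressed at a much lower level than NR4A1. NR4A2 (ENSG00000153234, chromosome 2, 156324437 to 156342348, − strand), best known for its role in dopamine neurons, had 210, 145 and 188 reads in the shNC libraries against 195, 212 and 231 in the shNUF2 libraries. The shNC libraries spread by 25.1% around their mean, and shNC replicate 1 (14.8 CPM) reached above the lowest shNUF2 library (14.5 CPM). NR4A2 rose from 11.6 ± 2.91 CPM to 15.4 ± 0.923 CPM (SD, n = 3), a log2 fold change of 0.42 (standard error 0.14, adjusted p = 0.011, quasi-likelihood test of edgeR, Benjamini-Hochberg adjusted). The call was lost without shNC replicate 2, the lowest library, where the log2 fold change was 0.27 with an adjusted p of 0.104. NR4A3 (ENSG00000119508, chromosome 9, 99821855 to 99866891, + strand) had 118, 159 and 161 reads in the shNC libraries against 197, 179 and 177 in the shNUF2 libraries, and every shNUF2 library was above every shNC library after scaling. NR4A3 rose from 9.20 ± 0.836 CPM to 13.4 ± 1.46 CPM (SD, n = 3), a log2 fold change of 0.53 (standard error 0.13, adjusted p = 0.000926, quasi-likelihood test of edgeR, Benjamini-Hochberg adjusted), and passed whichever library was left out.

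MYC (ENSG00000136997, chromosome 8, 127735434 to 127742951, + strand) had 4287, 5218 and 5454 reads in the shNC libraries against 3832, 4064 and 4434 in the shNUF2 libraries. After scaling the groups overlapped, with 315.0 ± 12.6 CPM with shNC and 297.3 ± 14.4 CPM with shNUF2 (SD, n = 3). This difference of -0.08 on the log2 scale did not pass (standard error 0.05, adjusted p = 0.102, quasi-likelihood test of edgeR, Benjamini-Hochberg adjusted), and it stayed between -0.12 and -0.05 when a library was left out. MYC passed as lower in 4 settings: with library totals as the only scaling (-0.12, adjusted p = 0.0232), with no filter (-0.11, adjusted p = 0.0247), without shNC replicate 1 (-0.12, adjusted p = 0.0265) and without shNUF2 replicate 2 (-0.12, adjusted p = 0.0316). For a single gene, an exact two-sided permutation test over the 6 libraries cannot go below p = 0.10, which was reached by EGR1, EGR2, EGR3, IER3, IER5, NR4A1 and NR4A3, while IER2, NR4A2 and MYC gave p = 0.20.

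**Figure D2:**
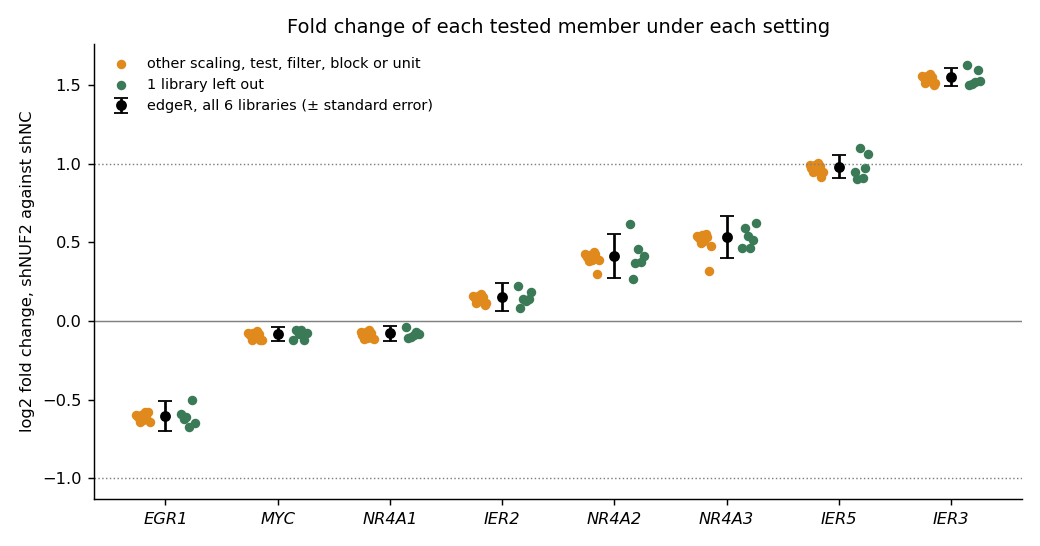
Log2 fold change (shNUF2 against shNC) of the 8 tested members under each setting. Black points are the edgeR fit with all 6 libraries ± standard error, orange points other scalings, tests, filters, the replicate block or log2 FPKM, and green points fits with 1 library left out. Dotted lines mark the DEG threshold of 1 in either direction, which only IER3 exceeds under every setting, and IER5 lies near it.

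Members of one family were also set against each other within each library, where the scaling between libraries does not enter. These 10 pairs were chosen after the values were seen. The ratio of IER3 reads to IER2 reads was 4.62, 4.72 and 4.38 in shNC replicates 1 to 3 and 12.1, 11.1 and 12.97 in shNUF2 replicates 1 to 3, a 2.63-fold higher mean ratio on the log scale. The ratio of IER5 to IER2 was 2.39, 2.71 and 3.25 with shNC and 5.28, 4.94 and 4.61 with shNUF2, or 1.79-fold higher. IER3 thus stood higher against IER2 in all shNUF2 libraries, and it also did so against IER5, by 1.47-fold. Against NR4A1, the counts of NR4A2 were 1.43-fold and those of NR4A3 1.54-fold higher with shNUF2. The ratio of NR4A3 to NR4A2 was 0.562, 1.10 and 0.856 with shNC and 1.01, 0.844 and 0.766 with shNUF2, and overlapped. Between families, the ratio of IER3 to EGR1 was 4.02, 3.54 and 3.49 with shNC and 15.55, 18.03 and 15.97 with shNUF2, the widest shift of the 10 pairs at 4.49-fold. NR4A1 to EGR1 and MYC to EGR1 were each 1.45-fold higher with shNUF2, and IER3 to MYC was 3.10-fold higher. Most pairs set a member that rose against one that did not, so that a separation of the groups was built into the choice, and the ratios are a description with no test.

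**Figure D3:**
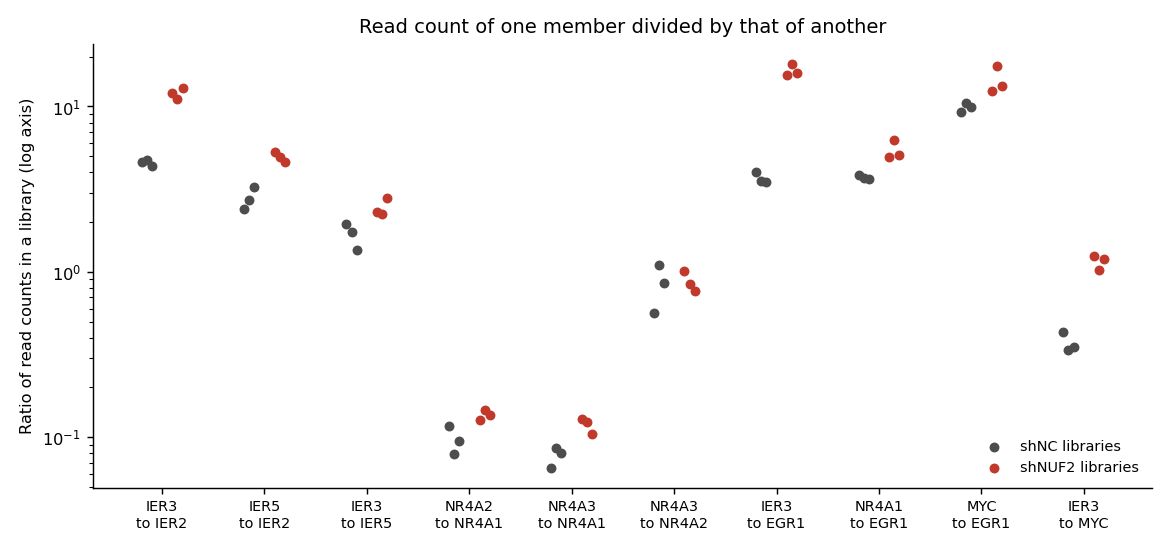
Ratio of the read counts of 2 members in the same library, on a log axis, for 10 pairs. Grey points are the 3 shNC and red points the 3 shNUF2 libraries. The groups are apart for every pair except NR4A3 to NR4A2, and farthest apart for IER3 to EGR1 (4.49-fold).

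Other genes were taken from a list of 42 genes described as rapidly induced, including the FOS, JUN, KLF, DUSP, ZFP36 and GADD45 families. The list was chosen with earlier results of these data known, so its counts are a description and no independent support. Whether these genes answered to one signal was not tested. Of the 41 tested, 37 rose and 4 fell at an adjusted p under 0.05, where 33.9% and 33.8% of all genes did, and 22 were higher DEGs and 0 lower DEGs, where 9.41% and 4.16% of all genes were called. Their median log2 fold change was 1.15, against -0.01 for all genes tested and 0.28 for the 8 members. When a library was left out, 34 to 37 rose. The rises of SGK1, PLK3 and FOS, named after their values were seen, were lost in 7, 6 and 1 of 15 alternatives. TNFAIP3, the deubiquitinase that ends NF-kB signaling, had 609, 620 and 648 reads in the shNC libraries against 4616, 4074 and 4548 in the shNUF2 libraries, and its log2 fold change of 3.01 was the highest of the list (standard error 0.06, adjusted p = 3.57e-24, edgeR). FOSB, an AP-1 subunit, had 47, 48 and 50 reads in the shNC libraries against 335, 328 and 345 in the shNUF2 libraries, a log2 fold change of 2.99 (standard error 0.14). The genes with the highest mean FPKM, the phosphatase DUSP1 (519.5 FPKM with shNC and 703.6 FPKM with shNUF2) and the small GTPase RHOB (288.8 and 399.3 FPKM), rose by less, with log2 fold changes of 0.48 and 0.51 (standard errors 0.05 and 0.05). The 4 that fell, named after their values were seen, were FOSL2 (-0.14), JUND (-0.62), IER5L (-0.42) and DUSP2 (-0.75, the lowest). The log2 fold change of IER3 (1.55) lay above the median of this list but well under its highest values, and that of EGR1 (-0.60) lay near its lower end.

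EGR proteins are held back by the corepressors NAB1 and NAB2, which EGR factors also induce. NAB2 rose from 14.62 to 22.02 FPKM (log2 fold change 0.63, standard error 0.07, adjusted p = 1.63e-08, quasi-likelihood test of edgeR, Benjamini-Hochberg adjusted), and NAB1 rose by 0.14 (standard error 0.06, adjusted p = 0.0416, same test). The call of NAB1 was lost in 10 of 15 alternatives, with adjusted p up to 0.16. With 8 genes described as EGR targets they formed a list of 10, all tested, of which 7 rose and 2 fell at an adjusted p under 0.05 (33.9% and 33.8% of all genes), with 3 higher DEGs and 0 lower DEGs (9.41% and 4.16% of all genes). Among its higher DEGs, F3, the tissue factor that starts coagulation, rose by 1.68 (standard error 0.06) and PDGFB, a growth factor chain, 1.52 (standard error 0.09). The list median was 0.63, while EGR1 itself fell. The list was not chosen for a single EGR factor, and many of its genes also answer to other signals.

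The factors that act on immediate early promoters moved in both directions. Of 12 SRF, ternary complex and CREB factors tested, 4 rose and 6 fell at an adjusted p under 0.05, where 33.9% and 33.8% of all genes did, with 0 higher DEGs and 1 lower DEG, where 9.41% and 4.16% of all genes were called, and the median log2 fold change was -0.09. SRF, which is also in the list of rapidly induced genes, rose (0.42, standard error 0.07, adjusted p = 1.09e-05, edgeR), and ELK1 had a log2 fold change of 0.11 that did not pass (standard error 0.05, adjusted p = 0.0704, edgeR). The coactivators of CREB differed in direction: CRTC1, the 1 lower DEG, had a log2 fold change of -1.12 (standard error 0.11) and CRTC2 one of 0.62 (standard error 0.05). CRTC3, named after its values were seen, fell as well (-0.49, standard error 0.05). With limma on log2(FPKM + 1), CRTC1 was no longer a DEG and the list had 0 lower DEGs. ATF1, a CREB relative, fell by 0.50 on the log2 scale (standard error 0.06). Among the RXR genes, whose proteins pair with NR4A1 and NR4A2, RXRA fell (-0.52, standard error 0.05), RXRB rose (0.17, standard error 0.05), and RXRG was not tested for lack of reads.

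MYC works within a network of proteins, mainly basic helix-loop-helix leucine zipper factors, many of which compete for MAX. A list of 13 partners, antagonists, paralogs and related factors was used, and not all of them pair with MAX. Of these, 12 were tested, and 9 rose and 3 fell at an adjusted p under 0.05 (33.9% and 33.8% of all genes). By the study's thresholds, 2 were higher DEGs and 1 was a lower DEG (9.41% and 4.16% of all genes). The list median log2 fold change was 0.39. MAX rose by 0.55 on the log2 scale (standard error 0.08, adjusted p = 2.14e-06, quasi-likelihood test of edgeR, Benjamini-Hochberg adjusted). MXD1, which takes MAX away from MYC and represses the same E-boxes, rose from 5.50 to 18.6 FPKM (log2 fold change 1.80, standard error 0.08), and MXI1, another such antagonist, rose by 0.85 (standard error 0.05). MYCL, a paralog, was a higher DEG at 1.04 (standard error 0.29), but its libraries overlapped, with 24, 24 and 54 reads in the shNC libraries against 74, 37 and 72 in the shNUF2 libraries, and it was a DEG only in some settings. MLX, a partner of the glucose-responsive factors, rose by 0.26 (standard error 0.07) and lost its call in 1 of 15 alternatives, and MLXIPL, one of those factors, was the lower DEG at -1.66 (standard error 0.16).

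Proteins that control MYC stability formed a list of 9, all tested, of which 3 rose, 3 fell and 3 did not pass at an adjusted p under 0.05, near the share of all genes (33.9% and 33.8%), with 0 DEGs in either direction at the study's thresholds (9.41% and 4.16% of all genes) and a median log2 fold change of 0.05. The rise of the ubiquitin ligase FBXW7, named after its values were seen, was lost in 5 of 15 alternatives. Another ligase, HUWE1, fell (-0.34, standard error 0.04), and the kinase AURKA had a log2 fold change of 0.05 that did not pass (standard error 0.05, adjusted p = 0.389, edgeR). Of 22 genes widely described as MYC targets, most of them in ribosome production, 3 rose, 11 fell and 8 did not pass at an adjusted p under 0.05, where 33.9% of all genes rose and 33.8% fell, and 0 were DEGs in either direction, where 9.41% and 4.16% were called. Their median log2 fold change was -0.17, against -0.01 for all genes tested, and their values ran from -0.77 to 0.26. The most abundant of them per length, LDHA (403.3 FPKM in both groups) and ODC1 (282.4 to 312.2 FPKM with shNC and 325.2 to 333.6 FPKM with shNUF2), had log2 fold changes of 0.04 (adjusted p = 0.407, edgeR) and 0.18 (adjusted p = 0.000561, edgeR).

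**Figure D4:**
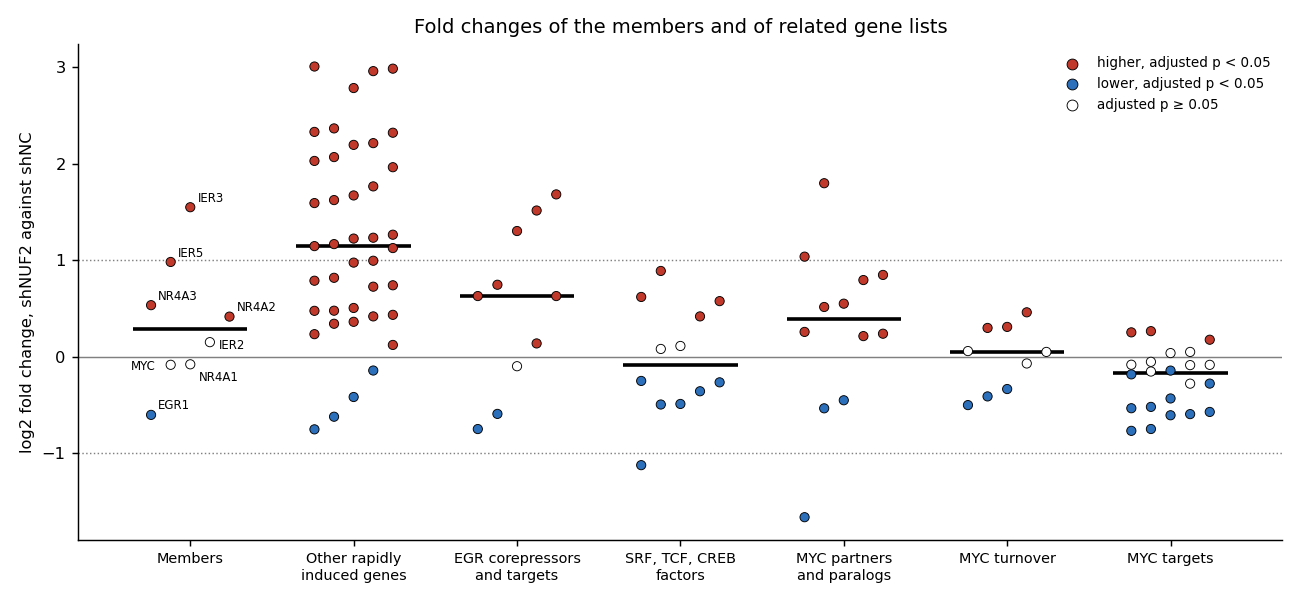
Log2 fold changes (shNUF2 against shNC) of the tested members and of 6 related gene lists, 1 point per gene, with black bars at the list medians and dotted lines at the DEG threshold. Red and blue points passed an adjusted p under 0.05 in edgeR as higher or lower, and open points did not pass. The 41 other rapidly induced genes have a median of 1.15, the 8 members 0.28 and the MYC targets -0.17.

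The genes whose profile over the 6 libraries was most like that of a member were found by the root mean square difference of centred log2 CPM, which is 0 for identical profiles. For IER3, the nearest genes were CSRNP1, itself a nuclear protein induced by signals, at 0.0476 and DSE, an epimerase of dermatan sulfate synthesis, at 0.0480. For EGR1 they were TMEM254 at 0.0364 and IQANK1 at 0.0365. For NR4A1 they were GRIPAP1 at 0.0108 and the ribosomal protein gene RPL8 at 0.0121, and for MYC the cytochrome c gene CYCS at 0.0186 and CLNS1A at 0.0211. The measure describes 6 libraries in 2 groups, so that a gene with a similar difference between the groups comes near by that alone.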

How the data were processed

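RNA of OVCAR3 cells was sequenced from 3 shNC and 3 shNUF2 libraries, made with a kit that keeps the strand. The submitters' processing notes name cutadapt, HISAT, HTSeq and the build GRCh38.p13, and the annotation release and the strand setting are not given in the sources used here. The authors deposited raw read counts per gene and FPKM values, which followed from the count, the gene length and the library total (largest relative deviation 2.71e-07). The 6 columns of counts and their FPKM columns were all used, and samples were grouped by their titles. Depth limits the rare members: a count of 0 allows up to 3 reads.

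The counts were fitted in edgeR 4.0.16 under R 4.3.3 (filterByExpr by group, TMM, quasi-likelihood test, all 6 libraries in one fit without covariates, 12874 genes tested, common biological coefficient of variation 4.93%). The standard error of a log2 fold change is its size divided by the square root of the F statistic. The study's thresholds were read on the log2 scale. On simulated counts with 200 changed genes among 12759, edgeR and DESeq2 recovered 200 with 2 false calls each, and limma recovered 200 with 0 false calls. Recovery at the fold changes and the spread of the members was not tested. The replicate numbers did not pair the libraries (correlations of same-numbered deviations 0.02, 0.00 and -0.03). Alternatives were other scalings, DESeq2 1.42.0, other filters, the replicate block, limma 3.58.1 on log2 FPKM with a pseudocount of 1 or 0.1, edgeR TREAT and each library left out. The members and gene lists were chosen with earlier results of these data known. Genes named are the members, NUF2, the markers, in each list the 2 DEGs with the largest rise and the 2 with the largest fall, the 2 with the highest mean FPKM, 6 fixed cofactors (NAB1, NAB2, MAX, MXD1, SRF and ELK1), the 2 nearest profiles per family, and those said to be named after their values were seen. Promoters come from RefSeq (GRCh38.p14) and overlaps from GENCODE 29. Tables and figures were made in Python 3.11.15 (pandas 2.3.3, scipy 1.17.1, matplotlib 3.10.9). Some genes of the lists are not reported here by name.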

Additional observations from a re-analysis of the deposited data

How the results depend on the processing

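Each of the 8 tested members kept its direction under every alternative other than TREAT, and EGR1, IER3, IER5 and NR4A3 kept their side of the adjusted threshold in these. TREAT, which asks for a change beyond 1, was used only for DEG counts and called 1 member, IER3. NR4A2 ran from 0.27 to 0.61 on the log2 scale when 1 library was left out and lost its call without shNC replicate 2 (0.27). IER2 ran from 0.084 to 0.22 and passed without shNC replicate 1 (0.22). NR4A1 ran from -0.11 to -0.038 and MYC from -0.12 to -0.054. With library totals as the only scaling, which moved the median of all genes from -0.01 to -0.05, NR4A1 (-0.12) and MYC (-0.12) passed as lower and the members lower at an adjusted p under 0.05 became 3, and with no filter MYC passed (-0.11) and they became 2. Leaving out 1 library gave 1 to 2. The number of members that were higher DEGs was 2 with no filter (EGR3 and IER3), 2 with at least 1 CPM in every library (IER3 and IER5) and 1 to 3 when a library was left out, since IER5 exceeded 1 in 2 of the 6 fits and EGR3 passed the filter in 4, only through the shNUF2 libraries where it is high, so that its count there is no support for a rise. The 2 higher DEGs of the MYC network became 1 with library totals only, with limma at either pseudocount and with TREAT, and 1 to 2 when a library was left out, and its lower DEG was lost with limma on log2(FPKM + 1), leaving 0, as was CRTC1. The replicate block changed no call of a member (IER3 1.55, MYC -0.08). Over all genes, higher DEGs numbered 1212 in the reported fit, 756 with at least 1 CPM in every library and 430 with limma on log2(FPKM + 1), and lower DEGs 536, 206 with limma on log2(FPKM + 1) and 329 with TREAT. The cause of these shifts was not tested. EGR2 and EGR3 are limited by their depth, with at most 20 reads in a library.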
